A study of Rattus norvegicus with 12 samples.

Results

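The central nucleus of the amygdala (CeA) of rats exposed to chronic intermittent ethanol (CIE) vapor was compared here with that of rats kept in air, for 10 transcription factors of the oligodendrocyte lineage. The members were chosen by gene symbol as *Olig1*, *Olig2*, *Sox10*, *Sox8*, *Myrf*, *Nkx2-2*, *Nkx6-2*, *Tcf7l2*, *Id2* and *Id4*. All 10 had a row among the 37209 genes counted, and all 10 were among the 20944 genes that passed the filter on low counts. The rats were wild-type male Sprague Dawley rats aged 14 to 16 weeks. The 6 CIE rats were killed at the end of their last ethanol vapor exposure and the 6 Control rats at the end of their last air exposure. CIE rats are numbered 1 to 6 and Control rats 7 to 12, with 1 RNA-Seq library per rat, and the numbers pair no rats.

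Oligodendrocytes wrap axons in myelin, and they arise from precursor cells that persist in the adult brain. *Olig1* and *Olig2* are basic helix-loop-helix factors that specify the lineage, and *Sox10* with its relative *Sox8* maintains it and turns on myelin genes. The homeodomain factors *Nkx2-2* and *Nkx6-2*, the Wnt pathway effector *Tcf7l2* and the membrane-bound factor *Myrf* act later, as precursors differentiate and myelinate. *Id2* and *Id4* bind helix-loop-helix partners without binding DNA and hold differentiation back, and neurons and astrocytes also make them.

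Libraries held 61978486 to 78441691 counts in CIE rats and 39082548 to 95647601 in Control rats. Of the 10 markers of CeA neurons looked up, 9 were found and tested, with summed levels of 842 to 2395 CPM (read counts scaled by library total and TMM factor) in CIE rats and 886 to 2844 in Control rats. Markers of neighboring tissue varied between punches. Summed over 8 cortical glutamatergic markers the level was 112 to 514 CPM in CIE rats and 87.2 to 291 in Control rats, and over 9 striatal markers it was 637 to 3948 and 361 to 4365 CPM. With scores of both lists as covariates, the same number of members, 4, was lower in CIE rats at a nominal p below 0.05. All genes at that p, in either direction, numbered 1775 in that fit and 1740 in the main fit. That fit covered only these lists and held no thalamic or myelin markers, so it does not cover all neighboring tissue.

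Most of the lineage factors had lower mean levels in CIE rats. By edgeR's quasi-likelihood test, *Nkx2-2*, *Nkx6-2*, *Sox8* and *Olig1*, 4 of the 10, were lower in CIE rats at a nominal p below 0.05, where 4.31% of all genes tested were lower. None of the 10 was higher, against 4% of all genes. None passed a false discovery rate (FDR) of 5%, which 0.363% of all genes passed, while 2 did by DESeq2 and 2 by limma-voom. The median log2 fold change of the members was -0.30, beside 0.00096 over all genes tested, and 9 of the 10 were below 0. In no member did every CIE rat lie below every Control rat, as was so for 0.554% of all genes. In these bulk samples fewer oligodendrocytes and less RNA per cell cannot be told apart.

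**Figure D1:**
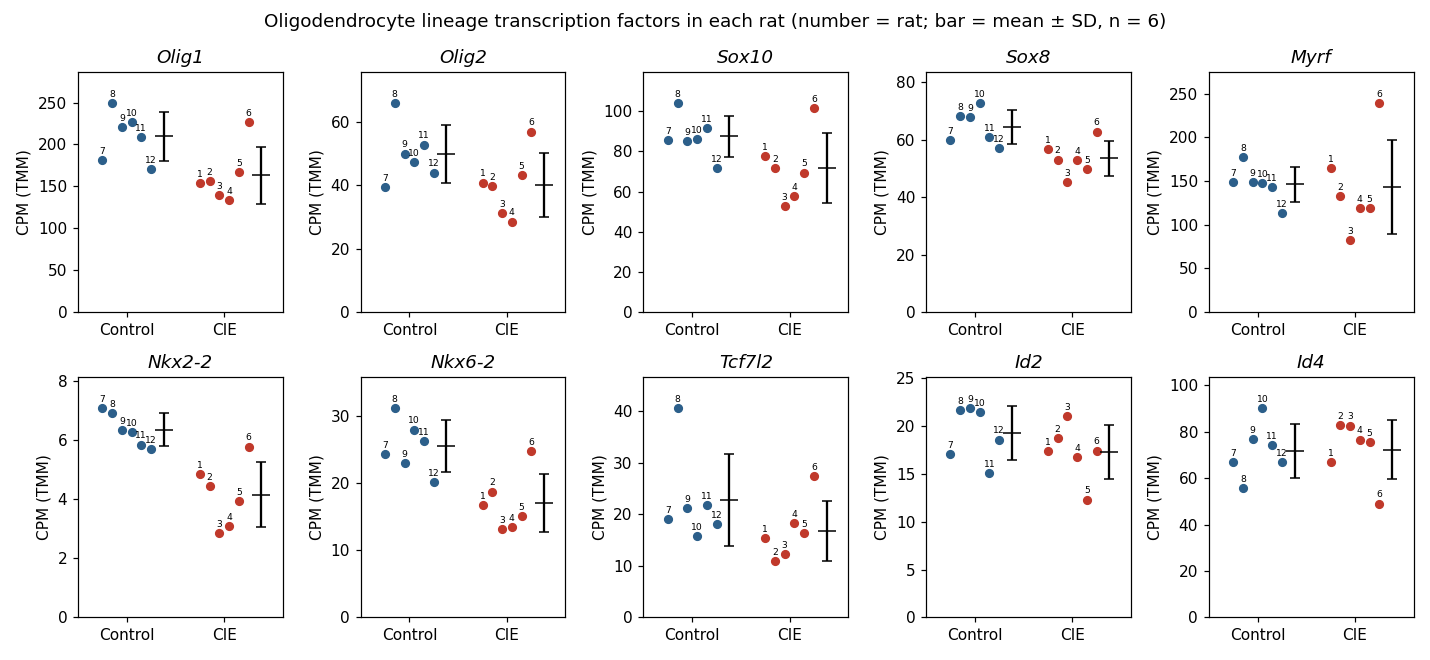
Level of each factor in each rat, in CPM after TMM normalization, with axes from 0. Points are rats labeled by number, blue for Control and red for CIE, and the black marks are the mean ± SD of 6 rats. CIE rat 6 is the highest CIE rat for every factor except *Id2* and *Id4*, and CIE rats 1 to 5 lie below all Control rats for *Nkx2-2* and *Nkx6-2*.

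*Olig1* was lower in CIE rats. Its level was 134 to 227 CPM in CIE rats with a median of 155, and 171 to 249 CPM in Control rats with a median of 214. All CIE rats but rat 6 lay below every Control rat. Means were 163 ± 33.5 CPM (SD, n = 6) in CIE rats and 209 ± 29.2 in Control rats, a log2 fold change of -0.36 (SE 0.13) with a nominal p of 0.0129 and an FDR of 0.411. *Olig2*, the neighbor of *Olig1* with 0 genes between them in the RefSeq GRCr8 annotation, ranged from 28.6 to 57.0 CPM around a median of 40.4 in CIE rats and from 39.5 to 65.9 around 48.6 in Control rats. Only CIE rats 3 and 4 were below all Control rats. The log2 fold change of *Olig2* was -0.32 (SE 0.16), with a nominal p of 0.0645. The log2 ratio of *Olig1* to *Olig2* in the same library was 2.04 in CIE rats and 2.07 in Control rats, a difference of -0.04 (SE 0.08) with an exact permutation p of 0.652.

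*Sox8* was lower in CIE rats and varied little between rats. It lay at 45.4 to 62.8 CPM with a median of 53.0 in CIE rats and at 57.0 to 72.6 CPM with a median of 64.4 in Control rats. Again CIE rat 6 alone overlapped the Control rats. Means were 53.5 ± 5.96 and 64.4 ± 6.02 CPM (SD, n = 6), a log2 fold change of -0.27 (SE 0.08) with a nominal p of 0.00618 and an FDR of 0.311. *Sox10*, the main SoxE factor of the lineage, ranged from 52.6 to 102 CPM in CIE rats (median 70.5) and from 71.9 to 104 CPM in Control rats (median 85.9). Its log2 fold change of -0.28 (SE 0.14) was as large as that of *Sox8*, but its spread between CIE rats was wider, with a coefficient of variation of 24.0% against 11.1%, and its nominal p was 0.0580. The ratio of *Sox8* to *Sox10* differed between groups by 0.04 on the log2 scale (SE 0.10, exact permutation p = 0.708).

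*Nkx2-2* and *Nkx6-2* showed the largest differences among the 10 members. *Nkx2-2* is a repressor required for precursors to mature on time. It was scarce, at 185 to 664 counts per library. Its level was 2.86 to 5.77 CPM in CIE rats with a median of 4.17, and 5.68 to 7.06 CPM in Control rats with a median of 6.29. CIE rat 6, at 5.77 CPM, exceeded 1 Control rat, rat 12, and the other CIE rats were all below the Control range. The mean level was decreased by 34.6% in CIE rats, at 4.15 ± 1.10 against 6.35 ± 0.552 CPM (SD, n = 6). On the log2 scale CIE differed from Control by -0.61 (SE 0.16), with a nominal p of 0.00175 and an FDR of 0.169.

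*Nkx6-2*, a homeodomain factor of myelinating oligodendrocytes, ranged from 13.2 to 24.7 CPM around a median of 15.9 in CIE rats and from 20.2 to 31.1 CPM around 25.3 in Control rats. CIE rat 6 was again the only CIE rat inside the Control range. The mean was decreased by 33.3% in CIE rats, at 17.0 ± 4.32 against 25.5 ± 3.85 CPM (SD, n = 6), a log2 fold change of -0.58 (SE 0.15) with a nominal p of 0.00170 and an FDR of 0.169. By DESeq2 the FDR was 0.0242 for *Nkx2-2* and 0.0275 for *Nkx6-2*, and by limma-voom 0.0334 and 0.0438. The ratio of the 2 homeodomain factors to each other differed between groups by -0.04 on the log2 scale (SE 0.10, exact permutation p = 0.680).

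The counts of members depended on CIE rat 6. Without it, 7 members were lower at a nominal p below 0.05, while all genes at that p in either direction went from 1740 to 1954. At 5% FDR 3 members passed, namely *Nkx6-2* (FDR 0.0172), *Nkx2-2* (FDR 0.0370) and *Olig1* (FDR 0.0458). The number of all genes at 5% FDR went from 76 to 154. This rat had the highest summed level of 20 myelin and mature oligodendrocyte genes in its group, 15595 CPM, where the other CIE rats had 6414 to 10314 CPM and Control rats 9692 to 18056 CPM. It also had the highest sums of the 12 rats for 10 astrocyte markers (3264 CPM), 10 microglial markers (474 CPM) and 9 endothelial markers (359 CPM), and the lowest for 10 neuronal markers (3991 CPM) and 9 CeA markers (842 CPM). The part of these in the members' levels was not tested.

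The promoters of both homeodomain genes are shown because these members differed most. RefSeq promoter sequences of the GRCr8 assembly were matched for 6 of the 10 members, and those of *Olig1*, *Sox10*, *Sox8* and *Myrf* were not used here. The 250 bases before the annotated start were searched on both strands for CAGCTG, a form of the E-box that Olig factors bind, for ACAAAG and ACAATG, forms bound by Sox factors, and for CTTTGA, bound by TCF/LEF factors such as *Tcf7l2*. These letters were found in 12%, 16.3%, 11.1% and 13.9% of 33469 promoter windows, and 56.9% held none of them. Neither window below held any, so no letters are capitalized. They lie on the minus strand at chr3:155075623-155075872 for *Nkx2-2* and chr1:203813123-203813372 for *Nkx6-2*, with a GC content of 63.2% and 67.2% beside a median of 51.2% over all windows, and read 5′ to 3′ toward the start.
Nkx2-2: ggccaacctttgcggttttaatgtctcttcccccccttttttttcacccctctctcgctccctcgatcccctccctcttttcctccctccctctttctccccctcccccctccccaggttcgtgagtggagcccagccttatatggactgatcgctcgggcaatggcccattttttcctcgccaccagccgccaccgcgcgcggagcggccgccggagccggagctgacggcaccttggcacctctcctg
Nkx6-2: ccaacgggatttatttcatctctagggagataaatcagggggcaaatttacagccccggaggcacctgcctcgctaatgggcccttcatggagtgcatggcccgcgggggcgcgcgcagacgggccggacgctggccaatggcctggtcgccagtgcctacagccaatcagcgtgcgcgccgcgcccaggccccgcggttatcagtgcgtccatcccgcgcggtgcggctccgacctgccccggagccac

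**Figure D2:**
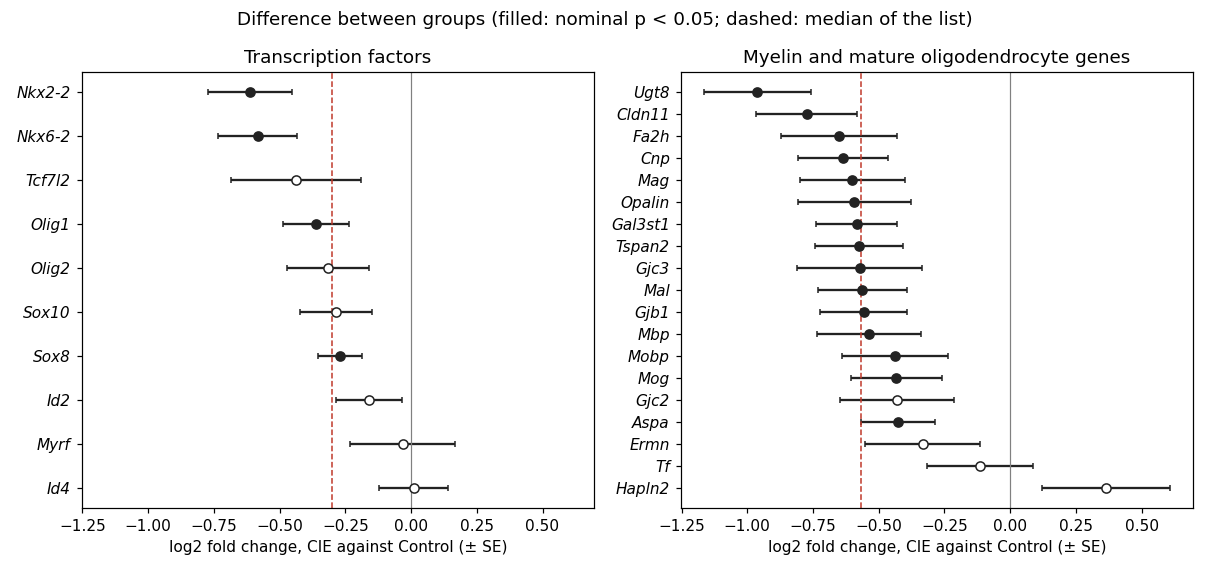
Log2 fold change of CIE against Control for the 10 factors on the left and for 19 of the 20 myelin and mature oligodendrocyte genes on the right, with bars of 1 SE from edgeR and filled points for a nominal p below 0.05. Dashed lines mark the medians of the whole lists, -0.30 and -0.57. *Myrf* and *Id4* sit near 0 while 15 of the 19 myelin genes plotted are filled and to the left.

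*Myrf*, which is cleaved from the membrane to activate myelin genes and is needed to keep them on in mature cells, had a similar mean in both groups. Its level was 82.7 to 239 CPM in CIE rats with a median of 126 and 113 to 177 CPM in Control rats with a median of 148. The CIE rats enclosed the whole Control range, with rat 3 at the bottom and rat 6 at the top. Means were 143 ± 54.0 and 146 ± 20.3 CPM (SD, n = 6), which on the log2 scale differed by -0.03 (SE 0.20), at a nominal p of 0.873. An interval of 2 SE on each side ran from -0.43 to 0.37, so a difference of the size seen for *Olig1* in either direction was within it. The value went from -0.24 without CIE rat 6 to 0.09 without CIE rat 3.

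*Tcf7l2*, made both by newly forming oligodendrocytes and by thalamic neurons, was 10.9 to 27.5 CPM in CIE rats with a median of 15.9 and 15.8 to 40.6 CPM in Control rats with a median of 20.1. CIE rats 1, 2 and 3 were below all Control rats. The log2 fold change of -0.44 (SE 0.25) had a nominal p of 0.0970, and it was -0.18 without Control rat 8, whose 40.6 CPM was the highest of the 12 values. In Control rat 8 the thalamic and subcortical marker *Slc17a6* was 81.7 CPM and the summed level of 8 thalamic markers was 194 CPM, the highest of both groups. That sum was 83.9 to 152 CPM in CIE rats and 104 to 194 in Control rats. CIE rat 6 had the highest sum and the highest *Tcf7l2* of its group. All 8 markers passed the filter, with a median log2 fold change of -0.28, and 6 were below 0. At a nominal p below 0.05, 1 of the 8, *Plekhg1*, was lower in CIE rats, beside 4.31% of all genes tested. None was higher, against 4% of all genes. The part of these markers in the level of *Tcf7l2* was not tested.

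Neither inhibitor passed the test. *Id2* was 12.3 to 21.0 CPM in CIE rats (median 17.4) and 15.1 to 21.9 CPM in Control rats (median 20.1), with only CIE rat 5 below the Control range. The log2 difference was -0.16 (SE 0.12), at a nominal p of 0.221. *Id4* was 49.0 to 83.0 CPM in CIE rats (median 76.0) and 55.8 to 90.0 CPM in Control rats (median 70.6). The groups overlapped almost entirely, and the log2 difference was 0.01 (SE 0.13, 2-SE interval -0.25 to 0.27). CIE rat 6 and Control rat 8, the 2 rats with the highest *Olig1*, *Olig2* and *Sox10*, had the lowest *Id4* of their groups. The ratio of *Id2* to *Id4* differed by -0.17 (SE 0.20, exact permutation p = 0.418). Over the 4 ratios within families the adjusted p was 0.708 for each.

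*Tcf7l2* and *Id2* held the only matches among the 6 promoter windows, and these are shown with the matched letters in capitals. *Tcf7l2* (chr1:264791085-264791334, plus strand) had CATTGT, the reverse complement of ACAATG, starting 111 bases before the start. *Id2* (chr6:47470996-47471245, minus strand) had CAGCTG starting 215 bases before it. *Olig2* and *Id4* had none. A match of this length is a description of the letters and not a binding site.
Tcf7l2: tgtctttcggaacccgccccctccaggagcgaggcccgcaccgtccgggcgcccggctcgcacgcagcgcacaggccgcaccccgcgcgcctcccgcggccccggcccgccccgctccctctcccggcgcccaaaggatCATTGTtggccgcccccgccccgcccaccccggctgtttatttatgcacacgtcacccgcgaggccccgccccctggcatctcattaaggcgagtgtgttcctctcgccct
Id2: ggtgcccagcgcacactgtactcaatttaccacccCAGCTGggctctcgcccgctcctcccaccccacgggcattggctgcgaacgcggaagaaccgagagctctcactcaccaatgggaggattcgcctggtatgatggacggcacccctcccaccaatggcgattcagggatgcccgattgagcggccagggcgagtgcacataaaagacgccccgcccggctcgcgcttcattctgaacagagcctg

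The factors were then set against the myelin genes. Of 20 myelin and mature oligodendrocyte genes, 16 were lower in CIE rats at a nominal p below 0.05, where 4.31% of all genes tested were lower. None was higher, against 4% of all genes. Their log2 fold changes ran from -0.96 to 0.36 with a median of -0.57, and 19 were below 0 and 1 above. The smallest p belonged to *Ugt8*, which makes the myelin lipid galactosylceramide, at -0.96 (SE 0.20, FDR 0.0727), to the tight junction protein gene *Cldn11* at -0.77 (SE 0.19) and to the sulfatide enzyme gene *Gal3st1* at -0.58 (SE 0.15). The mean log2 CPM of the list was 7.06 ± 0.44 in CIE rats and 7.60 ± 0.30 in Control rats (SD, n = 6). The log2 ratio of each factor to this mean within a library does not depend on how libraries are scaled, and it asks whether a factor differed by as much as the myelin genes did.

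*Myrf* was higher relative to the myelin genes in CIE rats. Its log2 ratio was -0.20 to 0.17 in CIE rats and -0.59 to -0.24 in Control rats, so all 6 CIE rats lay above all 6 Control rats. The difference was 0.44 (SE 0.08), with an exact two-sided permutation p of 0.00216, the smallest that 6 rats against 6 can give, and 0.0216 adjusted over the 10 ratios. The adjusted exact p was 0.0216 to 0.0433 when each of the 12 rats was left out. The myelin mean itself differed by -0.54, so a gene at equal levels in both groups has a higher ratio in CIE rats. How many of all genes tested have a ratio that separates the groups was not counted. *Sox10* came next, 0.23 higher relative to the myelin genes (SE 0.08, exact p = 0.0195, adjusted p = 0.0974), with 2 CIE rats above all Control rats. *Sox10* passed at 0.0216 without Control rat 12 and at 0.0433 without CIE rat 6, by the adjusted exact p, and without CIE rat 6 so did *Id4* at 0.0325.

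The other factors were not separated from the myelin genes. *Nkx2-2* and *Nkx6-2* had differences in ratio of -0.11 (SE 0.11) and -0.06 (SE 0.09), with exact p of 0.385 and 0.450. For *Olig1*, *Olig2* and *Sox8* the differences were 0.17 (SE 0.11), 0.21 (SE 0.12) and 0.27 (SE 0.15), and for *Tcf7l2* 0.11 (SE 0.23). *Id2* and *Id4* had larger but more variable differences of 0.38 (SE 0.26) and 0.54 (SE 0.32). These 8 adjusted exact p lay between 0.238 and 0.630.

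**Figure D3:**
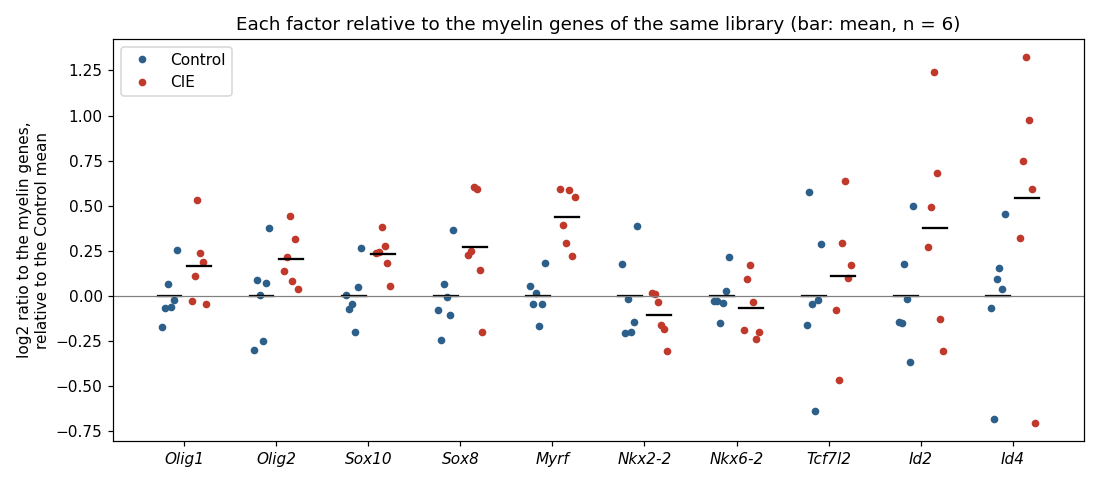
Log2 ratio of each factor to the mean log2 CPM of 20 myelin genes in the same library, minus the Control mean of that factor. Points are rats, blue for Control and red for CIE, and bars are means of 6 rats. For *Myrf* the 6 CIE rats are all above the 6 Control rats, while *Nkx2-2* and *Nkx6-2* overlap around 0.

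After these values were seen, *Myrf* was also compared with each other member in turn. Its log2 ratio to *Nkx2-2* was 4.84 to 5.37 in CIE rats and 4.31 to 4.67 in Control rats, without overlap, a difference of 0.55 (SE 0.10, exact p = 0.00216). Its ratio to *Nkx6-2* was 2.65 to 3.30 in CIE rats and 2.40 to 2.69 in Control rats, with 5 CIE rats above all Control rats and a difference of 0.51 (SE 0.12, exact p = 0.00433). Both had an adjusted exact p of 0.0195 over 9 ratios, which does not cover the choice of *Myrf*. *Nkx2-2* and *Nkx6-2* had the largest differences of the members, so these ratios largely restate values given above. How many pairs of all genes tested have a ratio that separates the groups was not counted. The other 7 ratios did not pass, among them that to *Sox10*, which differed by 0.21 (SE 0.09, exact p = 0.0628, adjusted p = 0.188). With the myelin mean as a covariate in the edgeR fit, the log2 fold change was 0.43 for *Myrf* (FDR 0.132), -0.30 for *Nkx2-2* (FDR 0.415) and -0.22 for *Nkx6-2* (FDR 0.393). For *Sox10*, whose ratio to the myelin genes came next after that of *Myrf*, it was 0.06 in that fit (FDR 0.759).

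Across the 12 rats, 8 of the 10 members rose with the myelin genes at an adjusted permutation p below 0.05, and these were the 8 members other than the Id genes. How many of all genes tested rose with the myelin genes was not counted. *Sox10* followed them most closely, with Pearson's r of 0.97 and Spearman's rho of 0.94 (adjusted permutation p 6.7e-05 and 0.00040). Then came *Nkx6-2* and *Olig1* at r = 0.95 each, *Sox8* and *Nkx2-2* at 0.91 each and *Olig2* at 0.88. *Myrf* had r = 0.81 and rho = 0.79 over all rats (adjusted permutation p 0.00107 and 0.00473), but r = 0.957 within CIE rats and 0.954 within Control rats, with exact p of 0.0111 and 0.0250. *Myrf* thus tracked the myelin genes inside each group, along lines set apart by group. Without CIE rats 3 and 4, the 2 farthest from the median of the myelin mean, r was 0.94 for *Sox10* and 0.67 for *Myrf*.

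*Tcf7l2* correlated more loosely with the myelin genes, with r = 0.69 and rho = 0.63 (adjusted permutation p 0.0131 and 0.0397). With the group means removed its r was 0.59 and its adjusted permutation p 0.0534, and the other 7 stayed below 0.05. *Id2* had r = 0.19 and *Id4* r = -0.44, neither passing. Within CIE rats *Id4* fell as the myelin genes rose, with r = -0.87 (exact p = 0.0208). Within Control rats r was -0.00085 (exact p = 0.997), and the difference between these was not tested. The exact p within groups were not adjusted. With the group means removed, r of *Id4* over all rats was -0.56, and it was -0.083 without CIE rats 6 and 3.

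**Figure D4:**
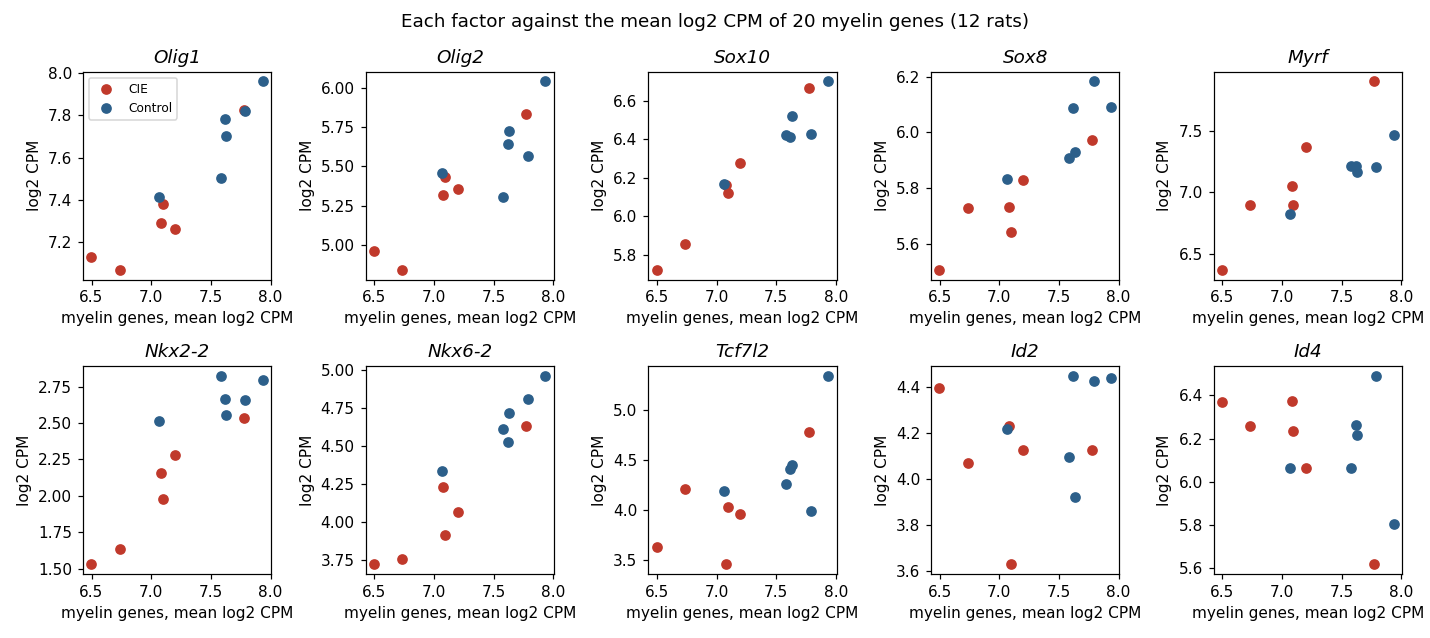
Log2 CPM of each factor against the mean log2 CPM of 20 myelin genes, with 1 point per rat, blue for Control and red for CIE. *Sox10* and *Nkx6-2* fall along 1 line through both groups (r = 0.97 and 0.95), the CIE rats lie above the Control rats at equal myelin levels for *Myrf*, and *Id2* and *Id4* show no common line.

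Among themselves 8 of the members formed a group. *Id2* and *Id4* lay outside it and did not follow each other (r = 0.07, adjusted permutation p 0.854). Of 45 pairs, 28 correlated at an adjusted permutation p below 0.05 by Pearson's r, 26 positively and 2 negatively, and 21 of these also by Spearman's rho. The positive pairs all lay among the 8 members other than *Id2* and *Id4*. *Nkx2-2* with *Nkx6-2* (r = 0.93, rho = 0.86), *Olig1* with *Nkx6-2* (0.93 and 0.92) and *Olig1* with *Olig2* (0.92 and 0.90) were the closest. *Sox8* with *Tcf7l2* (r = 0.61, adjusted permutation p 0.0541) and *Nkx2-2* with *Tcf7l2* (r = 0.58, adjusted permutation p 0.0708) were the pairs of the 8 that did not pass. Pairs drawn from all genes tested were not counted, so these numbers have no background here.

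Both negative pairs involved *Id4*. It fell as *Tcf7l2* rose (r = -0.75, rho = -0.69, adjusted permutation p 0.0145 and 0.0402) and as *Myrf* rose (r = -0.70, rho = -0.55, adjusted permutation p 0.0234 and 0.106). The first was -0.69 and the second -0.40 without the 2 rats farthest from the median of *Tcf7l2* and of *Myrf*, respectively. With the group means removed, 29 pairs passed by Pearson's r, 24 positive and 5 negative. The 5 were *Id4* with *Tcf7l2* (r = -0.84), *Myrf* (-0.70), *Sox10* (-0.70), *Olig2* (-0.64) and *Nkx2-2* (-0.64). None of the 5 passed by Spearman's rho, with adjusted permutation p of 0.0629 to 0.166. Without the 2 rats farthest from the median of the gene paired with *Id4*, their r was -0.48 to -0.29. *Id2* passed with no member, with or without removal of group means, its highest r over all rats being 0.43 with *Sox8*.

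**Figure D5:**
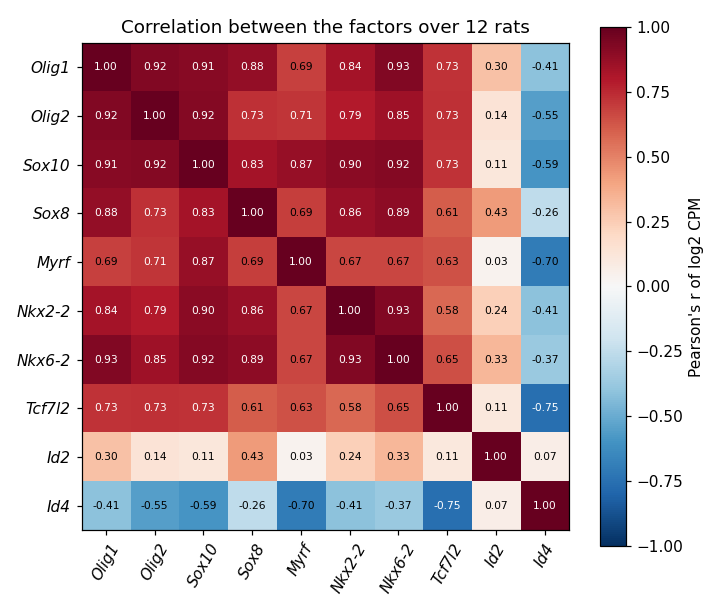
Pearson's r of log2 CPM between the 10 factors over 12 rats, from blue at -1 to red at 1, with r printed in each cell. The 8 factors other than *Id2* and *Id4* form a red block with r from 0.58 to 0.93, *Id2* is near white, and *Id4* is blue against *Tcf7l2* and *Myrf*.

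For each member, the 3 most similar of 20943 other genes by Pearson's r over the 12 rats are given as a description, and all share the same libraries. Those of *Sox10*, *Nkx6-2* and *Olig1* included genes of the myelin list. *Sox10* was most like *Ermn*, *Opalin* and *Cpm* (r = 0.98 each), *Nkx6-2* like *Cd9* (0.98), *Cnp* (0.97) and *Lpar1* (0.97), *Olig1* like *Gltp* (0.97), *Cnp* (0.97) and *Pllp* (0.96), and *Nkx2-2* like *Serinc5* (0.96), *Adamts4* (0.96) and *Plekha1* (0.95). *Myrf* was most like *Pacs2* (0.99), *Plekhg3* (0.97) and *Ttyh2* (0.96). *Olig2* was most like *Papss1* (0.93), *Olig1* (0.92) and *Clic4* (0.92), and *Sox8* like *Tp53inp2* (0.98), LOC100911674 (0.97) and *Foxc1* (0.96).

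The other members, *Tcf7l2* and the Id genes among them, had none of the myelin list among theirs. *Tcf7l2* was most like *Dmrta2* (0.96), *Skor1* (0.94) and the growth factor gene *Igf1* (0.94). *Id4* was most like *Rbbp7* (0.96), *Zdhhc2* (0.96) and *Stk25* (0.95). *Id2* was most like LOC100362466 (0.92) and LOC100362825 (0.90), both below 1 CPM on average, and *Commd2* (0.88).

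Genes listed here for earlier stages and other factors of the lineage were counted too. At a nominal p below 0.05, 4.31% of all genes tested were lower and 4% higher. Of 16 precursor and newly formed stage genes 15 were tested, *Gpr17* being counted at 0 in every rat. At that p, 3 of the 15 were lower and none higher. The log2 fold change was below 0 in 14 of the 15, with a median of -0.13. The deacetylase gene *Sirt2* was 140 to 207 CPM in CIE rats and 208 to 269 in Control rats, without overlap. Its log2 fold change of -0.50 (SE 0.09) passed at an FDR of 0.0300, the only one of this list below 5%. Whether *Sirt2* marks these stages rather than mature oligodendrocytes was not tested. *Enpp6*, a marker of newly forming oligodendrocytes, was at -0.72 (SE 0.19, FDR 0.182) and the kinase gene *Fyn* at -0.14 (SE 0.06, FDR 0.574).

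Of 34 other transcription factors tested, 3 were lower and none higher at that p, with a median of -0.05. *Zfp488*, which cooperates with *Olig2* in differentiation, was lowest at -0.85 (SE 0.18, FDR 0.0621), with 3.69 to 6.72 CPM in CIE rats and 6.53 to 13.1 CPM in Control rats. *Sox2*, shared by precursors and astrocytes, was 133 to 164 CPM in CIE rats and 166 to 175 CPM in Control rats, without overlap, at -0.23 (SE 0.06, FDR 0.148). *Sox9* was at -0.16 (SE 0.07, FDR 0.590).

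Signals that act on these factors were also counted, beside the same shares of all genes, 4.31% lower and 4% higher. Bone morphogenetic protein signals induce the Id genes, and none of 17 genes of that pathway was lower or higher at a nominal p below 0.05, with a median log2 fold change of 0.02. The nearest were *Bmp6* at 0.36 (SE 0.20), *Chrd* at 0.41 (SE 0.26) and *Bmpr1b* at -0.17 (SE 0.11). Of 16 Wnt pathway genes tested, 3 were lower and 1 higher, with a median of 0.03. *Apcdd1*, a Wnt inhibitor and target, was 12.3 to 16.2 CPM in CIE rats and 18.3 to 23.5 in Control rats, without overlap, at -0.47 (SE 0.09, FDR 0.0322). *Nkd1*, another feedback inhibitor, was at -0.61 (SE 0.18, FDR 0.276), and *Dkk3* was higher at 0.59 (SE 0.20, FDR 0.373).

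Of 12 Notch pathway genes 2 were lower and none higher, with a median of -0.10, and *Rbpj*, the DNA-binding partner of Notch, was at -0.22 (SE 0.07, FDR 0.296), *Dll4* at -0.62 (SE 0.26) and *Hes1* at -0.15 (SE 0.14). Of 9 Hedgehog genes 1 was lower and 1 higher, with a median of -0.03. *Hhip*, which binds Hedgehog ligands, was at -0.56 (SE 0.21, FDR 0.447), *Gli3* at 0.24 (SE 0.11, FDR 0.584) and *Ptch1* at -0.14 (SE 0.13).

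Markers of other cell types were counted at the same threshold, which 4.31% of all genes tested passed as lower and 4% as higher. Of 10 astrocyte markers, 2 were lower (*S1pr1* and *Aqp4*) and 1 higher (*Gjb6*) at a nominal p below 0.05, with a median of -0.08. Of 10 neuronal markers 1 was lower (*Tubb3*), with a median of -0.03, and of 10 microglial markers 1 (*Cx3cr1*), with a median of -0.07. Of 9 endothelial markers tested 4 were lower, *Pecam1*, *Tek* and *Flt1* with the smallest p, and 1 was higher, with a median of -0.17. Of 9 CeA markers 2 were lower, *Crh* at -0.45 (SE 0.17) and *Nts* at -0.46 (SE 0.21), with a median of -0.04. Of 8 cortical markers 2 were higher, *Rspo2* at 1.74 (SE 0.60) and *Neurod2* at 1.90 (SE 0.84), with a median of 1.68, and none of 9 striatal markers passed, with a median of 0.25. None of these markers passed 5% FDR.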

How the data were processed

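CeA punches of 6 CIE and 6 Control rats were measured by poly-A RNA-Seq, and groups were taken from the treatment label, since every sample title carries the letters CIE. Paired reads were aligned by the authors to the Rnor_6.0 genome using BWA, and the deposited values are raw counts per gene from HTSeq. The annotation and the strand and overlap settings are not given in the sources used here, so antisense or overlapping transcripts cannot be separated. The submitters' processing notes also name DESeq2 1.26.

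Counts were tested between groups with edgeR 4.0.16 in R 4.3.3 (quasi-likelihood F test, TMM, filterByExpr, no covariates, two-sided, Benjamini-Hochberg over all 20944 genes tested). Log2 CPM used a prior count of 2. Ratios were tested by exact permutation of 6 rats against 6, and correlations by 100000 permutations, the smallest p being 1e-05, each adjusted within its family. Rats were housed in groups, and which rats shared a cage is not given in the sources used here. The tests treated cage mates as independent, so p-values measure the spread between these rats and not between cages. CPM is not corrected for transcript length, and levels were not compared between genes. Python 3.11.15 with scipy 1.17.1 was used for permutations.

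Alternatives were other size factors, other filters, DESeq2 1.42.0, limma 3.58.1 (voom with sample weights), the myelin mean as a covariate, a prior count of 0.5, summed myelin CPM, removal of group means and leaving out each rat. Tissue-marker covariates and the ratios of *Myrf* to other members were added after values were seen. The members and all gene lists were chosen with earlier results of these data known. Genes named are the members, the 3 smallest p and every gene at 5% FDR of each list, and the 3 genes most like each member. Not found by symbol were *Zfp24*, *Axin1*, *Slco1a4* and *Tac2*, and *Olig3* and *Sp5* did not pass the filter. Of the myelin list, 1 gene is not reported here by itself. Scripts were tested on simulated data.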

Additional observations from a re-analysis of the deposited data

Results flagged for a closer look

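In 48 groups of 6 rats examined for a single rat far from the others, 2 stood out by Dixon's criterion, where chance gives about 1 in 20. *Olig1* in CIE rat 6 was 227 CPM, while the next highest CIE rat was at 167 CPM. *Tcf7l2* in Control rat 8 was 40.6 CPM, while the next highest Control rat was at 21.8 CPM.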

How the results depend on the processing

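The count of 4 lower members stood with other size factors, library size only, a filter of at least 10 counts in every rat, DESeq2 and the tissue-marker covariates. It was 5 with no filter, where *Sox10* passed, and 6 with limma-voom. All genes at a nominal p below 0.05, in either direction, numbered 1740 in the main fit, 2267 with no filter and 3596 with limma-voom. With the myelin mean as a covariate 2 members were lower and 1 was higher, and all genes at that p numbered 2401. In that fit *Olig2* (0.028), *Sox10* (0.062), *Myrf* (0.43) and *Id4* (-0.21) changed the sign of their log2 fold change. At 5% FDR there were 2 members by DESeq2 and 2 by limma-voom, where all genes passing rose from 76 to 274 and 234. The cause of these shifts was not tested. Leaving out each rat gave 4 to 7 lower members, while all genes at that p in either direction numbered 1347 to 2811. At 5% FDR there were 0 to 3 members, and 34 to 154 of all genes. The ratio to the myelin genes passed for 1 to 3 members. The log2 fold change was -0.24 to 0.087 for *Myrf* and -0.045 to 0.10 for *Id4*. The log2 difference was -0.017 to 0.097 for the ratio of *Sox8* to *Sox10*. It was -0.018 to 0.22 for the ratio of *Tcf7l2* to the myelin genes. With group means removed, the correlation of *Id2* with the myelin genes was -0.042. The difference of *Myrf* relative to the myelin genes was 0.49 with summed CPM, at an adjusted exact p of 0.0216. At 185 to 664 counts, *Nkx2-2* had the least depth of the members. No paired analysis was possible because the rats' numbers pair no rats.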
